A study of Mus musculus with 120 samples.

Results

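The genes described here are retrocopies that stood far apart between NOD and NOR mice in scaffold biopsies, together with their parent genes. The members are Csnk2a3 with its parent Csnk2a1, Rbpj-ps3 with Rbpj, Ubb-ps with Ubb, and the copies Gm4737, Gm5898 and Gm9118, and they were taken by gene name from the 55487 genes that both count tables list (9 of 55487). They were chosen by their measured NOD against NOR difference in expression within sequencing batch 1, so that contrast is given below as a description and carries no test. Tests of the members and their pairs are given only for comparisons within a strain, between batches of NOD samples, and for the strain by age interaction. For partner genes, cell type markers and neighbouring genes, calls from the NOD against NOR contrast are given as well.

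The series followed an immunological niche (IN), a porous poly(ε-caprolactone) scaffold implanted under the skin of female mice at 4 weeks of age and biopsied repeatedly. Samples came from NOD/ShiLtJ mice, which develop autoimmune diabetes spontaneously, and from NOR/LtJ mice, a related strain that stays free of it, and the labels name no drug or engineered allele for either. Ribosomal RNA-depleted total RNA was sequenced from 120 biopsies. There were 23 NOR biopsies from 5 mice at 6, 10, 14, 18 or 22 weeks of age, all in batch 1. NOD nonprogressors, which stayed normoglycemic, gave 39 biopsies: 33 at 6 to 22 weeks of age (20 in batch 1 and 13 in batch 2) and 6 in batch 1 labelled only as 31, 38 or 108 days after implantation. NOD progressors, which became hyperglycemic, gave 58 biopsies from 10 mice: 10 were taken at an age of 6 weeks, 8 came 7 weeks ahead of onset, and 10 each came 5, 3 and 1 weeks ahead of onset and at onset itself. Batch 1 held 74 biopsies and batch 2 held 46, run on different instruments. Mice 1 to 4 of the progressors were in both, with their biopsies of 7 weeks ahead of onset in batch 2 and the rest in batch 1. In the groups compared between batches below no mouse was in both, so mice and sequencing run cannot be told apart there.

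A retrocopy arises when the messenger RNA of a parent gene is reverse transcribed and inserted elsewhere in the genome. It lacks the introns of its parent, and it is called a processed pseudogene unless it keeps a usable reading frame. Because copy and parent are nearly identical, many short reads fit either of them, and a gene's count then rests on how the counting software divides such reads.

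Sequence comparison paired each copy with its parent. The parents of Gm4737, Gm5898 and Gm9118 were found to be Ahcy, Thrap3 and Npm1, which are not members and are shown because the sums need them. All sequences are those of the GRCm38 reference genome with GENCODE M21 transcripts, a reference strain that is neither NOD nor NOR. Along the best alignment Csnk2a3 matched Csnk2a1 at 99.6% of positions with 4 single-base differences, Rbpj-ps3 matched Rbpj at 99.7% with 4, and Gm4737 matched Ahcy at 99.7% with 7. Gm5898 matched Thrap3 at 99.0% with 16 differences, Ubb-ps matched Ubb at 97.7% with 8, and Gm9118 matched Npm1 at 97.0% with 12. The alignment covered 82.1% of Ubb-ps and at least 98.2% of each other copy.

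The stretches below show 1 coding window for each pair, with the bases by which copy and parent differ in capitals. They are shown because reads that cover no difference are the same for both genes. Every pair also differs at bases outside the window shown. The alignments of Csnk2a3, Ubb-ps, Gm5898 and Gm9118 also held gaps, of 6, 6, 5 and 11 bases. Positions are counted from 1 at the 5′ end of the copy's transcript, and each difference is written with the parent's base first. The window of Csnk2a3 (chr1:156524327-156524367, plus strand) holds T336C, the only coding difference of that pair, against Csnk2a1 (chr2:152250607-152250611 joined to chr2:152254210-152254245, plus strand). The window of Rbpj-ps3 (chr6:46529823-46529866, minus strand) holds C949A and G952A against Rbpj (chr5:53652667-53652710, plus strand), and the pair also differs by T310C and A1088C. Ubb-ps (chr14:46084546-46084676, plus strand) holds T316C, C319T, A325G, C358T, T374C and T406C against Ubb (chr11:62552794-62552924, plus strand).
Csnk2a3: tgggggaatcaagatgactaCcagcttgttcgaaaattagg
Csnk2a1: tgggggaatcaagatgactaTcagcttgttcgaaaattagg
Rbpj-ps3: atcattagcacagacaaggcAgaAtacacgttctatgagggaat
Rbpj: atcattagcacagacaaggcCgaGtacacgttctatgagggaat
Ubb-ps: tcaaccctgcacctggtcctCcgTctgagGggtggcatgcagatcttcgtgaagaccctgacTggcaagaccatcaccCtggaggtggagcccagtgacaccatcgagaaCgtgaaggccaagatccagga
Ubb: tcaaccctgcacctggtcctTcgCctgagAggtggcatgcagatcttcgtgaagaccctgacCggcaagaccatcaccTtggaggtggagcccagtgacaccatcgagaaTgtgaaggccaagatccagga

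The window of Gm4737 (chr16:46153925-46153983, minus strand) holds C1115T and C1133T against Ahcy (chr2:155062228-155062286, minus strand). Gm5898 (chr7:63544338-63544401, plus strand) holds G1880T, G1892A and A1903C against Thrap3 (chr4:126165547-126165610, minus strand). The window of Gm9118 (chr10:56497834-56497880, plus strand) holds G508A, T511A, T514A, T517A and T520A against Npm1 (chr11:33159934-33159950 joined to chr11:33157019-33157048, minus strand).
Gm4737: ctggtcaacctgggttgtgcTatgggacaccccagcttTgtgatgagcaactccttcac
Ahcy: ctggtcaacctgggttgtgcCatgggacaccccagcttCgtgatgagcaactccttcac
Gm5898: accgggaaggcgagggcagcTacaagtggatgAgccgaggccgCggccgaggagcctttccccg
Thrap3: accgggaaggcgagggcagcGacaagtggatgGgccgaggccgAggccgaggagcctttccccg
Gm9118: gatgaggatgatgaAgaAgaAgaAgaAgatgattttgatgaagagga
Npm1: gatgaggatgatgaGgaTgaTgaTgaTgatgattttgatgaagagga

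The differences leave long stretches without a distinguishing base. Of all 100-base windows of Csnk2a3, 20.3% had no exact match in Csnk2a1, and the share was 22.6% for Rbpj-ps3 against Rbpj, 17.4% for Gm4737 against Ahcy and 29.6% for Ubb-ps against Ubb. It was 55.6% for Gm5898 against Thrap3 and 81.1% for Gm9118 against Npm1. Gm9118 is thus the copy whose reads can most often be told from the parent in the reference, and Gm4737 the one whose reads can least often.

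**Figure D1:**
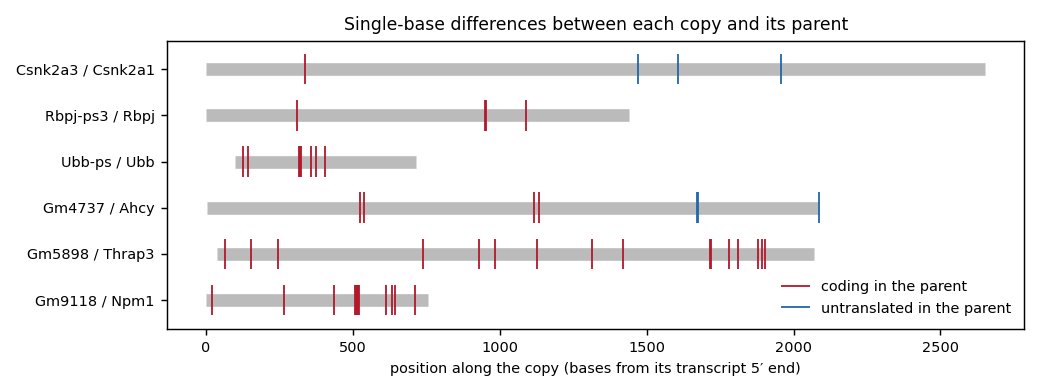
Single-base differences between each copy and its parent, placed by distance in bases from the 5′ end of the copy's transcript; grey bars are the aligned part of the copy, red ticks lie in the parent's coding sequence and blue ticks in its untranslated sequence. Csnk2a3 and Rbpj-ps3 carry 4 ticks each, whereas Gm5898 carries 16 and Gm9118 carries 12.

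Each copy lies on another chromosome than its parent. In GRCm38, Csnk2a3 (ENSMUSG00000101523, named Gm10031 in GENCODE M21) is a gene of 1 exon annotated as protein coding at chr1:156524012-156526664, and Csnk2a1 (ENSMUSG00000074698) lies at chr2:152226839-152281852. Rbpj-ps3 is a processed pseudogene at chr6:46529354-46530794, inside an intron of Cntnap2 and on the opposite strand, and Rbpj lies at chr5:53466152-53657362. Ubb-ps (named Gm1821 in GENCODE M21) is a transcribed processed pseudogene at chr14:46084028-46085000, and Ubb lies at chr11:62551171-62553213. Gm4737 is annotated as a protein-coding gene of 1 exon at chr16:46152985-46155077. Gm5898 is a processed pseudogene at chr7:63542479-63544549, inside an intron of Otud7a on the same strand, and Gm9118 is a processed pseudogene at chr10:56497341-56498094.

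Strain levels are given as counts per 1000000 counts (CPM, scaled by TMM) in 14 libraries of batch 1, each the sum of the biopsies of 1 mouse (9 NOD mice and 5 NOR mice). All 6 copies were higher in NOD, and every parent but Thrap3 was lower. Among all 23387 genes tested in this contrast, 8.98% passed an adjusted p of 0.05 in edgeR (3.87% higher and 5.11% lower in NOD), beside which the 9 of 9 members that passed are read as nothing more than the way they were chosen.

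Csnk2a1 encodes the main catalytic subunit of protein kinase CK2, and Csnk2a3 is its copy. Csnk2a3 ranged from 26.4 to 27.9 CPM in the NOD mice, with a median of 27.1, and stood at 2.34, 2.45, 2.24, 2.03 and 1.90 CPM in NOR mice 1 to 5. Csnk2a1 ranged from 51.7 to 60.2 CPM in NOD, with a median of 54.1, and stood at 80.7, 81.1, 81.6, 81.8 and 75.1 CPM in the NOR mice. Neither gene overlapped between the strains: the copy was higher by 3.63 on the log2 scale (SE 0.06) and the parent fell by 0.54 (SE 0.04). In CPM the copy was 25.01 higher in NOD and the parent 24.9 lower, so the parent's deficit came to 99.5% of the copy's excess. The sum of copy and parent was 82.4 ± 2.87 CPM (SD, n = 9) in NOD and 82.2 ± 2.95 CPM (SD, n = 5) in NOR, a log2 difference of 0.00 (SE 0.03), and the strains overlapped.

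Rbpj encodes the DNA-binding protein through which Notch receptors act on their target genes. Rbpj-ps3 ranged from 45.2 to 54.9 CPM in NOD, with a median of 51.5, and stood at 2.28, 2.74, 2.31, 2.19 and 2.15 CPM in NOR mice 1 to 5. Rbpj ranged from 69.3 to 92.2 CPM in NOD, with a median of 83.2, against 188, 221, 215, 198 and 191 CPM in NOR. Copy and parent again stood apart between the strains with no overlap, at log2 differences of 4.45 (SE 0.07) and −1.31 (SE 0.06). Here the fall of the parent was larger than the rise of the copy, 121 CPM against 48.7 CPM, or 249% of it. The sum was 133 ± 10.3 CPM (SD, n = 9) in NOD and 205 ± 15.1 CPM (SD, n = 5) in NOR, 0.63 lower on the log2 scale (SE 0.06), and no NOD mouse reached the lowest NOR mouse.

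Ubb encodes polyubiquitin, a chain of ubiquitin units that is cut into single ubiquitin. Ubb-ps ranged from 93.5 to 113 CPM in NOD, with a median of 103, and stood at 22.1, 24.0, 22.3, 22.4 and 20.4 CPM in NOR mice 1 to 5. This copy had the smallest strain difference of the 6 and a clear level in every NOR mouse (log2 difference 2.22, SE 0.05). Ubb ranged from 209 to 253 CPM in NOD, with a median of 234, against 362, 373, 341, 374 and 354 CPM in NOR, and fell by 0.63 on the log2 scale (SE 0.05). The parent's deficit was 156% of the copy's excess. Summed, the pair stood at 337 ± 21.1 CPM (SD, n = 9) in NOD and 383 ± 14.4 CPM (SD, n = 5) in NOR, a fall of 0.18 on the log2 scale (SE 0.05), and the strains overlapped at the edge, with 366 CPM in the highest NOD mouse and 363 CPM in the lowest NOR mouse.

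Gm4737 is the copy of Ahcy, whose enzyme hydrolyses S-adenosylhomocysteine, the by-product of methylation. Gm4737 ranged from 20.1 to 25.3 CPM in NOD, with a median of 23.02, and stood at 0.679, 0.786, 0.733, 0.543 and 0.702 CPM in NOR mice 1 to 5. Ahcy ranged from 9.89 to 11.8 CPM in NOD, with a median of 10.5, against 26.1, 26.8, 24.2, 26.0 and 26.2 CPM in NOR. The strains did not overlap for either gene, with log2 differences of 5.04 (SE 0.09) for the copy and −1.30 (SE 0.04) for the parent. In this pair the parent's deficit made up only 70.0% of the copy's excess. The sum was higher in NOD, at 33.1 ± 1.92 CPM (SD, n = 9) against 26.6 ± 1.01 CPM (SD, n = 5), a log2 difference of 0.32 (SE 0.04) without overlap. Gm4737 was the only copy above its parent in NOD, in counts uncorrected for length.

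Gm5898 is the copy of Thrap3, which encodes a nuclear protein of RNA splicing and transcription. Gm5898 ranged from 6.83 to 8.30 CPM in NOD, with a median of 7.53, and stood at 0.316, 0.247, 0.343, 0.286 and 0.321 CPM in NOR mice 1 to 5 (log2 difference 4.64, SE 0.09). Thrap3 was the exception among the parents, since its strains overlapped: it ranged from 123 to 130 CPM in NOD and stood at 122, 126, 125, 121 and 125 CPM in NOR, a log2 difference of 0.04 (SE 0.02). The sum was 135 ± 2.66 CPM (SD, n = 9) in NOD and 124 ± 2.10 CPM (SD, n = 5) in NOR, 0.12 higher on the log2 scale (SE 0.02) with no overlap, and its difference of 10.3 CPM was larger than the 7.25 CPM by which the copy differed.

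Gm9118 is the copy of Npm1, which encodes nucleophosmin, an abundant protein of the nucleolus. Gm9118 ranged from 9.49 to 11.5 CPM in NOD, with a median of 9.92, and stood at 0.316, 0.355, 0.248, 0.351 and 0.347 CPM in NOR mice 1 to 5 (log2 difference 5.00, SE 0.09). Npm1 ranged from 61.0 to 74.5 CPM in NOD, with a median of 66.0, and stood at 83.8, 86.9, 84.7, 91.1 and 79.3 CPM in NOR, a fall of 0.36 on the log2 scale (SE 0.04) without overlap. The parent's deficit was 186% of the copy's excess, and the sum fell by 0.15 (SE 0.04), from 85.5 ± 4.34 CPM (SD, n = 5) in NOR to 76.8 ± 4.52 CPM (SD, n = 9) in NOD, with overlap.

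**Figure D2:**
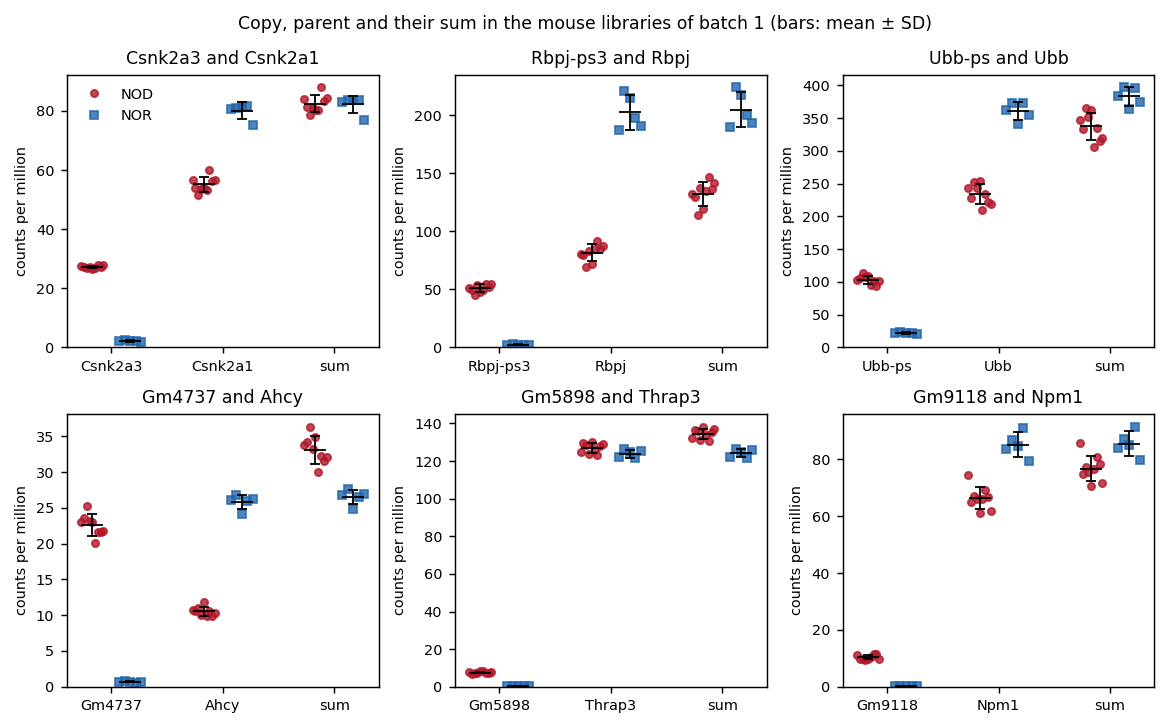
CPM of each copy, its parent and their sum in the 14 mouse libraries of batch 1; each point is 1 mouse (red circles NOD, n = 9; blue squares NOR, n = 5), and bars give the mean ± SD on axes that start at 0. The sum of Csnk2a3 and Csnk2a1 lies at 82.4 CPM in NOD and 82.2 CPM in NOR, whereas the sum of Rbpj-ps3 and Rbpj lies at 133 and 205 CPM.

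The sums thus did not behave alike. Copy plus parent overlapped between the strains for Csnk2a3 with Csnk2a1, Ubb-ps with Ubb and Gm9118 with Npm1, and did not overlap for Rbpj-ps3 with Rbpj (lower in NOD), Gm4737 with Ahcy and Gm5898 with Thrap3 (both higher in NOD). The pair of Csnk2a3 and Csnk2a1 had the log2 difference nearest to 0. The share of all genes that overlap between the strains in these libraries was not computed. How shared reads were divided between copy and parent was not tested. In the sum that division cancels for reads that fit only the pair. Biopsies also mix cell types, and in bulk samples fewer cells of a type and less RNA per cell cannot be told apart. The summed CPM of 10 marker lists (macrophage, fibroblast, endothelial, T cell, B cell, neutrophil, adipocyte, skeletal muscle, epidermis and erythroid) overlapped between the strains in all 10. Macrophage markers summed to between 1820 and 2191 CPM in NOD and between 1896 and 2275 CPM in NOR, fibroblast markers to between 16928 and 26641 CPM and between 19519 and 21781 CPM, and T cell markers to between 6.97 and 17.5 CPM and between 13.9 and 24.1 CPM. Overlap of these ranges does not mean equal levels. The highest epidermis sum was 122 CPM in NOD and 4.44 CPM in NOR. The highest neutrophil sum was 3.97 CPM in NOD and 14.6 CPM in NOR. Of the single markers, 2 of 5 for macrophages and 1 of 6 for T cells passed as lower in NOD. For erythroid cells, 1 of 4 passed as lower and 1 of 4 as higher. None of the other 7 lists held one that passed. Over all genes tested, 5.11% passed as lower and 3.87% as higher. The part of these cell types in the strain differences was not tested.

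**Figure D3:**
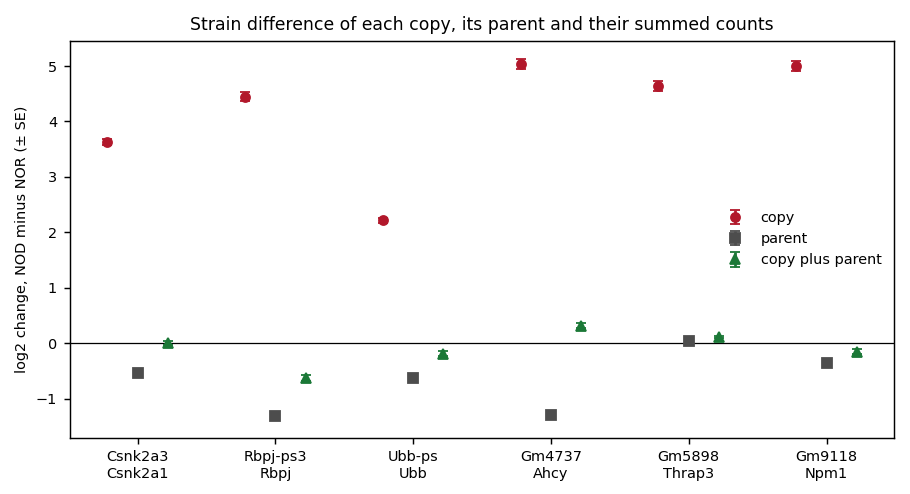
Log2 difference between NOD and NOR in batch 1 with its standard error, for each copy (red circles), its parent (grey squares) and their summed counts (green triangles), with the pairs along the horizontal axis. Copies lie between 2.22 and 5.04, parents between −1.31 and 0.04, and sums between −0.63 and 0.32.

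At the level of single biopsies, scaled together over all 120 libraries, every copy was higher in each NOD biopsy than in each NOR biopsy. The copies were chosen by this strain difference, and the share of all genes without such overlap was not computed. The highest NOR biopsy reached 3.50 CPM for Csnk2a3, 3.73 for Rbpj-ps3, 27.3 for Ubb-ps, 6.06 for Gm4737, 0.642 for Gm5898 and 0.530 for Gm9118. The lowest NOD biopsy of batch 1 stood at 17.4, 26.0, 75.7, 16.5, 4.00 and 7.48 CPM for the same genes, and the lowest of batch 2 at 19.8, 36.6, 31.4, 16.1, 3.66 and 2.58 CPM. The gap was narrowest for Ubb-ps, between 27.3 CPM in NOR and 31.4 CPM in a NOD biopsy of batch 2. The value of 6.06 CPM for Gm4737 came from the 18-week library of NOR mouse 5, in which it rested on 6 counts and where 1 ribosomal RNA gene took 85.7% of the counts (12.6% in the next highest library). In NOR biopsies Gm4737 had at most 50 counts, Gm9118 at most 23 and Gm5898 at most 15. Total counts per library ran from 4722396 to 56185434 in batch 1 and from 29029239 to 43880986 in batch 2.

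The copy's share of the counts of its pair shows the same contrast without any scaling between libraries. The share is a share of counts, not corrected for transcript length. For Csnk2a3 the median share was 2.63% in NOR biopsies (highest 3.77%) and 33.03% in NOD biopsies of batch 1 (26.3% to 40.3%). For Rbpj-ps3 it was 1.14% in NOR (highest 1.71%) and 38.4% in NOD of batch 1 (27.8% to 43.3%). For Ubb-ps it was 5.84% in NOR (highest 6.68%) and 30.6% in NOD of batch 1 (27.6% to 35.8%). These 3 copies thus took at least 26.3% of their pair's counts in every NOD biopsy of batch 1. Gm4737 took 2.39% in NOR (highest 15%, in the 18-week library of mouse 5) and 68.3% in NOD of batch 1 (55.5% to 74.4%). Gm5898 took 0.209% in NOR (highest 0.461%) and 5.57% in NOD of batch 1 (2.76% to 7.10%), and Gm9118 took 0.403% (highest 0.563%) and 13.5% (11.6% to 16.4%). No NOR biopsy reached the lowest NOD biopsy for any of the 6 copies, which were chosen by this strain difference.

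Next, the share was compared between the batches among NOD biopsies at 6 weeks of age, 9 in batch 1 and 12 in batch 2, 1 per mouse. The choice of genes did not use batch 2. It did use NOD biopsies of batch 1, so this comparison is not independent of it. The part of that choice in the differences between batches, here and below, was not tested. Exact two-sided permutation tests of the difference of the mean were adjusted over the 6 pairs. The share of Csnk2a3 was 36.4 ± 2.41% (SD, n = 9) in batch 1 and 23.2 ± 1.14% (SD, n = 12) in batch 2, a difference of −13.1 percentage points (adjusted p = 2.0e-05, exact permutation test). The share of Gm9118 was 12.9 ± 1.15% in batch 1 and 8.90 ± 1.26% in batch 2, a difference of −4.02 points (adjusted p = 2.0e-05, exact permutation test). In both cases every biopsy of batch 1 was above every biopsy of batch 2 (lowest 32.6% against highest 25.1% for Csnk2a3, and 11.7% against 10.9% for Gm9118), and the raw p of 6.8e-06 is the smallest this design can give. Gm4737 went the other way, from 69.0 ± 2.78% to 73.7 ± 1.85%, a rise of 4.72 points (adjusted p = 0.00076, exact permutation test). Rbpj-ps3 fell from 40.2 ± 1.90% to 38.3 ± 1.62% (difference −1.91 points, adjusted p = 0.036, exact permutation test), with overlap. The shares of Ubb-ps (32.0 ± 1.53% and 33.04 ± 1.05%, adjusted p = 0.075, exact permutation test) and Gm5898 (5.12 ± 0.977% and 4.39 ± 0.574%, adjusted p = 0.051, exact permutation test) did not pass. With the share averaged over all times of each mouse within its batch, both passed (differences of 2.84 and −1.26 points). Those means include biopsies after 6 weeks of age, at times that were not the same in the batches.

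**Figure D4:**
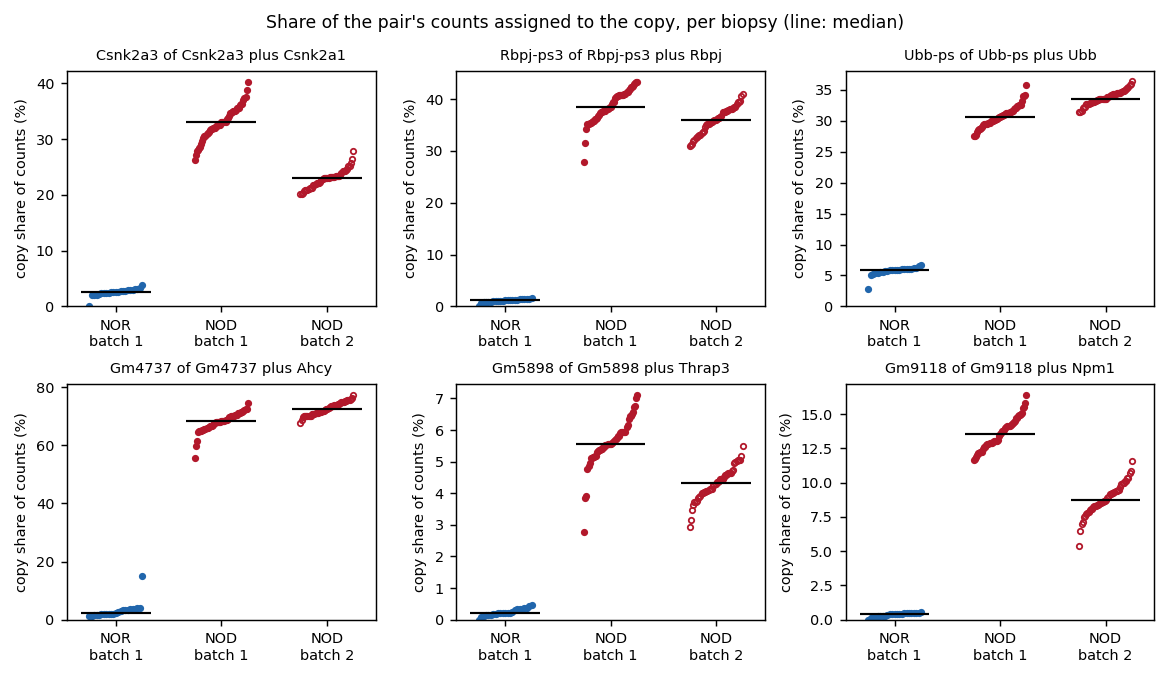
Share of the counts of each pair that fell on the copy, in percent, for every biopsy (points, sorted by value within a group; line, median) of NOR in batch 1 (blue), NOD in batch 1 (filled red) and NOD in batch 2 (open red). The share of Csnk2a3 had a median of 33.03% in NOD of batch 1 and 23.1% in NOD of batch 2, against 2.63% in NOR.

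The same comparison between batches was made for each gene over the NOD groups present in both batches (33 biopsies in batch 1 and 38 in batch 2), with the group as a covariate in edgeR. Here and in the comparisons over time, biopsies of 1 mouse entered as single samples although they are not independent, and p-values measure the spread between these biopsies. Most genes differed between the batches: 70.9% of all 19483 genes tested passed (36.7% higher and 34.2% lower in batch 2), and 7 of the 9 members passed, which is near that background. Csnk2a1 was higher in batch 2 by 0.47 on the log2 scale (SE 0.03) and Rbpj by 0.39 (SE 0.07), while Rbpj-ps3 was higher by 0.25 (SE 0.07) and Ubb-ps by 0.20 (SE 0.07). Csnk2a3 fell by 0.30 (SE 0.03), Gm5898 fell by 0.55 (SE 0.06) and Gm9118 fell by 0.56 (SE 0.07). Ubb (−0.01, SE 0.07) and Gm4737 (0.02, SE 0.05) did not pass. Csnk2a3 and Csnk2a1 thus moved in opposite directions between batches of the same strain.

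The sums were compared between batches after seeing the data, in the same fit, with biopsies of 1 mouse again entered as single samples. The sum of Csnk2a3 and Csnk2a1 was 0.26 higher in batch 2 (SE 0.02, edgeR adjusted p = 1.4e-15). The sum of Rbpj-ps3 and Rbpj was 0.34 higher (SE 0.07, edgeR adjusted p = 7.0e-06) and that of Gm5898 and Thrap3 fell by 0.21 (SE 0.02, edgeR adjusted p = 4.5e-15). The sums of Ubb-ps with Ubb (0.06, SE 0.07), Gm4737 with Ahcy (−0.08, SE 0.05) and Gm9118 with Npm1 (0.08, SE 0.06) did not pass. In NOD biopsies of batch 2, Csnk2a1 ranged from 64.5 to 97.3 CPM with a median of 78.8, and in NOR biopsies, all in batch 1, it ranged from 50.5 to 97.3 CPM with a median of 83.9. These ranges overlap. The NOD biopsies of batch 1 had a lower median of 55.8 CPM, and their range (46.8 to 71.7 CPM) overlaps the NOR range as well. The lowest count of Csnk2a1 in a NOR biopsy was 50, in the 18-week library of NOR mouse 5 that was mostly ribosomal RNA. The low end of the NOR range is thus imprecise, and the overlaps were not examined without that library. No NOR biopsy was sequenced in batch 2, so strain and batch cannot be told apart across batches.

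Progressors were compared with nonprogressors at 6 weeks of age (10 and 11 biopsies) with batch as a term. None of the 9 members passed, and neither did any of the 19082 genes tested (0%), in edgeR or in DESeq2. At an unadjusted p under 0.05 in edgeR, 985 genes and 0 members passed. The log2 differences of the members lay between −0.02 for Csnk2a1 (SE 0.05) and 0.15 for Gm5898 (SE 0.12). Within batch 1 and within batch 2 alone, 0 genes passed.

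In NOR mice, 1 of the 9 members changed over age, beside 8.24% of 19628 genes tested. That gene was Rbpj (edgeR adjusted p = 0.0037). It stood at 165, 203, 228 and 190 CPM at 6 weeks and at 156, 180, 193, 201 and 135 CPM at 10 weeks. The 14-week biopsies stood at 174, 217, 188, 166 and 201 CPM and the 18-week biopsies at 242, 294, 206 and 297 CPM. The 22-week biopsies stood at 268, 329, 240, 252 and 296 CPM, so that all of them were above every biopsy of 6, 10 and 14 weeks. The call was lost without NOR mouse 1 (edgeR adjusted p = 0.066) or without NOR mouse 5 (edgeR adjusted p = 0.056), and without the 18-week library of mouse 5 alone it was kept. Rbpj-ps3, at most 3.73 CPM in NOR, did not pass (edgeR adjusted p = 0.60).

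Over time in progressors, 4 of the 9 members changed, beside 35.6% of 21279 genes tested with a batch term. They were Rbpj (edgeR adjusted p = 0.00017), Gm4737 (edgeR adjusted p = 0.0033), Csnk2a1 (edgeR adjusted p = 0.012) and Rbpj-ps3 (edgeR adjusted p = 0.019). The mean of Rbpj was highest at onset in both batches: in batch 1 it was 73.3 ± 19.0 CPM at 6 weeks of age and 110 ± 17.4 CPM at onset (SD, n = 5 each), and in batch 2 it was 107 ± 13.2 CPM at 6 weeks and 144 ± 26.5 CPM at onset (SD, n = 5 each), with 84.2 ± 10.4 CPM at 7 weeks before onset (SD, n = 8). Rbpj-ps3 stood at 49.0 ± 12.01 CPM at 6 weeks and 61.9 ± 10.8 CPM at onset in batch 1, and at 66.6 ± 9.97 CPM at 6 weeks and 74.7 ± 17.1 CPM at onset in batch 2, with 48.7 ± 9.96 CPM at 7 weeks before onset. Gm4737 stood lower at onset than at 6 weeks, at 19.0 ± 2.32 against 26.4 ± 3.35 CPM in batch 1 and 22.2 ± 5.79 against 26.8 ± 3.52 CPM in batch 2. Csnk2a1 was 51.5 ± 2.94 CPM at 6 weeks and 65.6 ± 5.48 CPM at onset in batch 1, and 80.8 ± 5.37 CPM and 88.3 ± 6.72 CPM in batch 2.

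Within single batches the calls were partly others. In batch 1, 5 members passed, beside 3675 of 19596 genes tested, and in batch 2, 2 members passed, beside 5960 of 21377. Rbpj passed in batch 2 (edgeR adjusted p = 0.0016) and not in batch 1 (0.12), and Rbpj-ps3 passed in neither (0.26 and 0.060). Csnk2a1 passed in batch 1 (edgeR adjusted p = 0.0253) and not in batch 2 (0.24), and Gm4737 likewise (0.024 and 0.29). Ubb-ps (edgeR adjusted p = 0.0075), Gm5898 (0.021) and Ubb (0.049) passed in batch 1 alone, and Gm9118 in batch 2 alone (0.045). When mouse was added as a block to the fit with batch, Rbpj-ps3 was lost (edgeR adjusted p = 0.070) and the other 3 members were kept. Without the biopsies of 7 weeks before onset, all from batch 2, Rbpj-ps3 was lost too (edgeR adjusted p = 0.22).

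**Figure D5:**
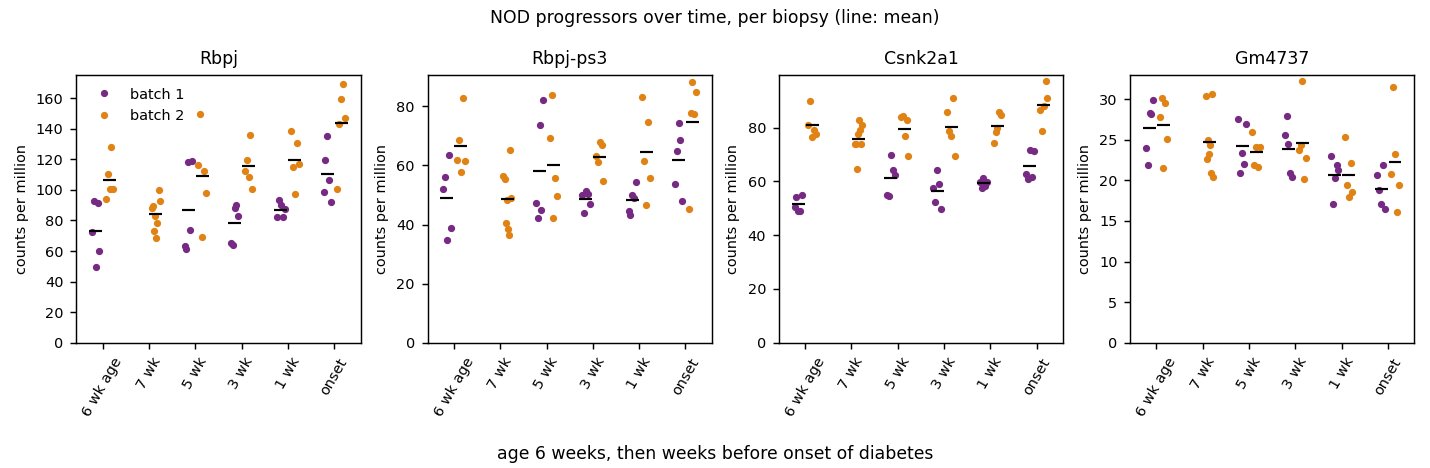
CPM of the 4 members that changed over time in NOD progressors, by age of 6 weeks and then by weeks before onset; each point is 1 biopsy (violet batch 1, orange batch 2), lines are means, and axes start at 0. Rbpj is highest at onset in both batches, at means of 110 and 144 CPM, and Gm4737 stands at 19.0 and 22.2 CPM there.

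Over age in nonprogressors, 4 of the 9 members changed, beside 34.7% of 21138 genes tested. They were Gm4737 (edgeR adjusted p = 0.0066), Gm9118 (edgeR adjusted p = 0.023), Csnk2a3 (edgeR adjusted p = 0.030) and Ubb (edgeR adjusted p = 0.046). In batch 1, where each of 5 ages had 4 biopsies, Gm4737 stood at 27.6 ± 4.80 CPM at 6 weeks and 20.5 ± 1.64 CPM at 22 weeks, again lower at the latest time. Gm9118 stood at 10.3 ± 0.865 CPM at 6 weeks and 13.5 ± 2.25 CPM at 22 weeks. Csnk2a3 stood at 30.1 ± 1.56 CPM at 6 weeks and 24.4 ± 4.76 CPM at 22 weeks, where 1 biopsy at 17.4 CPM lay below the other 3, and Ubb at 239 ± 17.5 CPM at 6 weeks and 215 ± 38.7 CPM at 22 weeks. Blocking on mouse kept only Gm4737 (edgeR adjusted p = 0.027), and Csnk2a3 (0.0571), Gm9118 (0.0502) and Ubb (0.11) were lost. Gm4737 was also kept without any one of the 4 mice of batch 1 (largest edgeR adjusted p = 0.049) and in batch 1 alone (0.024). Csnk2a3 was lost without mouse 1, 2 or 4, Ubb without each of the 4 mice, and Gm9118 without mouse 2 (edgeR adjusted p = 0.16).

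A strain by age interaction was tested in batch 1 between NOR and nonprogressors. None of the 9 members passed in edgeR, beside 1.43% of 20647 genes tested. At an unadjusted p under 0.05 in edgeR, 3 members (Rbpj, Ubb-ps and Gm9118) passed, beside 3072 of the 20647 genes. The smallest adjusted p among members was that of Rbpj (edgeR adjusted p = 0.14), which passed in DESeq2 (adjusted p = 0.042). Blocking on mouse, 126 genes passed in place of 296.

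The genes that work beside the parents were described from lists of partners. Of the CK2 subunits, Csnk2a2, the second catalytic subunit, differed between NOD and NOR by 0.03 on the log2 scale (SE 0.03) and Csnk2b, the regulatory subunit, by 0.10 (SE 0.05), and neither passed. Among 18 genes of the Notch pathway, 3 passed and all were lower in NOD, beside 8.98% of all genes that passed and 5.11% that were lower, namely the receptor Notch2 (−0.18, SE 0.04), the coactivator Maml1 (−0.16, SE 0.04) and the corepressor Spen (−0.13, SE 0.03). The median log2 difference of the 18 was 0.05, and that over all genes tested was within 0.01 of 0. The Notch targets Hes1 (0.27, SE 0.12), Hey1 (0.02, SE 0.11), Heyl (0.07, SE 0.19) and Nrarp (0.37, SE 0.18) did not pass.

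Over time 1 of 18 Notch genes passed in NOR (Maml1), beside 8.24% of all genes tested. In progressors 6 of 18 passed (Jag1, Hes1, Hey1, Heyl, Spen and Rbpjl), beside 35.6% of all genes, and in nonprogressors 9 of 18 passed, beside 34.7%. Between batches within NOD, 13 of 18 passed and all 13 were lower in batch 2, beside 34.2% of all genes, whereas Rbpj itself was higher there.

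Other annotated copies of the parents were rarely measured. Of 26 further copies of Ubb found by sequence, 4 were tested and 1 was past 1 on the log2 scale between the strains: Gm8797, at 6.12 CPM in NOD and 0.826 CPM in NOR (2.89 higher, SE 0.10). Of 13 further copies of Npm1, 5 were tested and 3 were past that limit, Gm5611 (0.511 and 0.0131 CPM), Gm6477 (1.72 and 0.790 CPM) and Gm14681 (0.488 and 0.137 CPM). Gm5611 and Gm14681 rested on 9 and 90 counts over all NOR mice. The share of all genes past that limit was not computed, so these counts of copies have no background beside them. The further copies of Csnk2a1 (3) and Rbpj (1) were too low to test, and the 1 tested copy each of Ahcy and Thrap3 was not past the limit. Adding every annotated copy to the sum left the strain differences of the sums close to those above.

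Position was not used to choose the genes. Within 2 Mb of each copy, genes of the strain contrast passed the threshold in 1 of 44 cases near Csnk2a3 (2.27%), 0 of 21 near Rbpj-ps3, 5 of 56 near Ubb-ps (8.93%), 0 of 28 near Gm4737, 1 of 23 near Gm5898 (4.35%) and 1 of 14 near Gm9118 (7.14%), all at or below the 8.98% over all genes. No neighbour was past 1 on the log2 scale. The largest differences were those of Sidt1 near Gm4737 (0.71, SE 0.43) and Gm44792 near Gm5898 (0.69, SE 0.51), and neither passed.

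The genes whose levels ran most alike across the 14 mouse libraries were mostly the other copies. For Csnk2a3 the highest Pearson r of log2 CPM was 0.999 with Rbpj-ps3, followed by Itgad and Gm4737, and for Ubb-ps it was 0.998 with Gm4737. Gm5898 ran closest to 9930111J21Rik2 (r = 0.997) and Gm9118 to Gm4864 (r = 0.998). The 14 libraries fall into the 2 strains, between which these copies were chosen to differ, so these values describe that split and nothing within a strain.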

How the data were processed

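The authors deposited 1 table of expected counts per gene for each sequencing batch, whole numbers without normalization. The submitters' processing notes name cutadapt, FastQC, STAR, RSEM, MultiQC and the GRCm38 build, with no versions given in the sources used here. RSEM estimates how reads that fit several transcripts are divided, so counts of near-identical genes depend on that estimate. Members and lists were chosen with earlier results of these data known. Named genes were the members, their parents, further copies past 1 (log2), partner lists, neighbours within 2 Mb and the 3 genes most alike. Part of the partner lists is not reported here.

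Of 55487 shared genes, 55141 matched GENCODE M21 by Ensembl identifier, with all 9 members among them. Parents were found with blastn 2.17.0+ (identity of at least 80% over at least 50% of the copy). Counts were tested in R 4.3.3 with edgeR 4.0.16 (filterByExpr, TMM, quasi-likelihood, with calls at a Benjamini-Hochberg adjusted p of 0.05), and DESeq2 1.42.0 served as the other tool. For NOD against NOR, biopsies were summed per mouse, which leaves out the 6 biopsies labelled by days after implantation. Over time, biopsies of a mouse were single samples with the mouse as a block as the paired alternative, since the labels number the mice. Deviations of biopsies of 1 mouse from group means correlated at −0.000483 in NOR, 0.0110 in nonprogressors and −0.0102 in progressors (mean r, 2000 genes). No 2 biopsies of a group were duplicates (lowest chi-square per degree of freedom 11.0 over 239 pairs). Copy shares were tested with Python 3.11.15 and scipy 1.17.1. On simulated data with 200 genes changed by 1 (log2), edgeR recovered 79.5% for NOD against NOR (23109 genes), 83.5% for 6 weeks (18915) and 73.0% for progressors over time (20934), and 3.05%, 4.57% and 8.75% of its calls were false. Simulated libraries were drawn independently, without mouse or batch differences in the means, and in progressors 1 time point was changed. These rates therefore do not cover errors from repeated biopsies of a mouse or from batches.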

Additional observations from a re-analysis of the deposited data

Results flagged for a closer look

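Groups of mouse libraries (12 genes and 6 sums, by NOR, progressors and nonprogressors of batch 1) and copy shares at 6 weeks were searched for a value far from the rest of its group, with 60 groups in all, and chance alone marks about 1 in 20 groups this way. There were 4 such values. In NOR mouse 5, Csnk2a1 stood at 75.1 CPM and the next lowest NOR mouse at 80.7 CPM, and the sum of Csnk2a3 and Csnk2a1 stood at 77.0 CPM with the next at 83.03 CPM. In NOR mouse 2, Rbpj-ps3 stood at 2.74 CPM and the next highest at 2.31 CPM. The share of Gm5898 at 6 weeks was 2.76% in nonprogressor mouse 2 of batch 1, and the next lowest of the 9 biopsies had 4.77%.

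The 6 nonprogressor biopsies labelled by days after implantation entered no mouse sum and no test, and stand only in the ranges of the 51 NOD biopsies of batch 1. In all of them each copy was above the highest NOR biopsy. They are NOD biopsies of batch 1, so this repeats the strain contrast by which the genes were chosen. The lowest of the 6 had 24.99 CPM of Csnk2a3 (highest NOR biopsy 3.50), 37.8 CPM of Rbpj-ps3 (3.73), 115 CPM of Ubb-ps (27.3), 23.4 CPM of Gm4737 (6.06), 7.66 CPM of Gm5898 (0.642) and 8.55 CPM of Gm9118 (0.530). Their highest values were 27.2, 54.9, 124, 29.9, 8.63 and 9.72 CPM.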

How the results depend on the processing

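Of the alternatives, 3 were chosen after seeing the data (the sum over every annotated copy, progressors without 7 weeks before onset, and the sums between batches under DESeq2 or no filter). The alternatives turned no called direction between strains or batches. Between arms no gene was called in any setting, so no called direction could turn, and the signs of some members changed. The sum of Csnk2a3 and Csnk2a1, near 0 between the strains, also changed sign, to −0.04 (SE 0.07) with 6-week samples only. The tests over time or age and of the interaction took several time points together and recorded no direction, so a reversal could not be seen there. With 6-week samples only, 403 genes passed between NOD and NOR in place of 2101 (165 higher and 238 lower), and the sums moved to −0.78 for Rbpj-ps3 with Rbpj, 0.46 for Gm4737 with Ahcy and 0.18 for Gm5898 with Thrap3 (log2). Leaving out each mouse gave 1433 to 2081 genes. In NOR over age DESeq2 called 3509 genes in place of 1617, and 2601 passed without the 18-week library of mouse 5. Leaving out each NOR mouse gave 481 (mouse 1) to 1488 genes, with 604 without mouse 2 and 802 without mouse 5, and 0 to 1 members. In progressors over time 1 member and 5755 genes passed without the batch term, and 2 members and 5960 genes in batch 2 only. In batch 1 only, 5 members and 3675 genes passed, in place of 4 and 7574. In nonprogressors 2 members and 6426 genes passed with no filter, and 1 member and 5513 genes with the mouse as a replicate block. In batch 1 only, 1 member passed, and 2672 genes passed in place of 7334. Leaving out each of the 4 mice of batch 1 gave 1 to 4 members and 5525 to 7620 genes, and the mice of batch 2 were not left out in turn. The interaction had 1084 genes and 1 member in DESeq2, 188 genes with no filter, 498 without the 18-week library, 126 with the replicate block, and 0 (without nonprogressor mouse 4) to 372 when a mouse was left out, so its count of 296 rests on single mice: 73 and 47 passed without nonprogressor mouse 1 or 3, and 52, 56 and 45 without NOR mouse 1, 2 or 5. The block changed no other member's call. With the share averaged over all times of each mouse, that of Ubb-ps (2.84 points) and of Gm5898 (−1.26) passed between batches. With the median at 6 weeks, the share of Gm5898 did (−0.95). The cause of these changes was not tested. The low levels in NOR limit precision: Gm5898, Gm9118 and Gm4737 rested on few counts per biopsy there.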
